A study of Mus musculus with 14 samples.

Results

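The genes described here are 8 that mark thalamic neurons in textbook maps of the mouse forebrain: Tcf7l2, Lef1, Rora, Zic1, Prkcd, Ramp3, Slc17a6 and Tnnt1. They were chosen by symbol, as genes whose level would show how much thalamus came along when the hippocampus was dissected. They are 8 of the 18728 annotated genes with a value in any library. RNA was sequenced from the hippocampus of 14 C57BL6 mice, 1 library per mouse as labelled. The mice were KMT2D+/+ or KMT2D+/bGeo, that is wild type or heterozygous at the gene of a histone H3K4 methyltransferase. By gavage they were given either methylcellulose alone or methylcellulose with TAK-418 at 1 mg/kg/day. TAK-418 inhibits LSD1, an enzyme that removes methyl groups from histone H3K4. Treatment ran for 2 weeks from 2 weeks of age, and the labelled age was 30 days. The vehicle groups held 3 wild types and 3 mutants, and the treated groups 5 wild types and 3 mutants. All 14 mice were dosed by gavage, so no group is undosed. Replicate numbers used here only name libraries within a group, follow the order of deposit and pair nothing. Litter, sex and dissection day are not given in the sources used here.

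The thalamus lies directly below the hippocampus, and a hippocampal dissection can carry thalamus, habenula or choroid plexus with it. Thalamic projection neurons load their vesicles with VGLUT2, the product of Slc17a6, whereas hippocampal pyramidal and granule neurons mainly use VGLUT1, the product of Slc17a7. Their identity is set in part by transcription factors such as Tcf7l2, Rora and Gbx2, and none of the 8 genes is confined to the thalamus: Lef1 is also found in blood vessel cells, Zic1 in septum and meninges, and Slc17a6 in some hippocampal and Cajal-Retzius cells.

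All 8 genes had a value in all 14 libraries, and their summed level differed little between libraries. Values are transcript abundances summed per gene and scaled between libraries, on a per-length scale like that of FPKM (fragments per kilobase of transcript and per M mapped fragments, where M is a factor of 1000000). The summed level of the 8 genes lay between 30.3 and 35.8, so the highest library was 1.18 times the lowest. Under vehicle the sum averaged 33.5 ± 0.354 (SD, n = 3) for wild types and 31.6 ± 1.16 (SD, n = 3) for mutants. Under TAK-418 the averages were 33.5 ± 1.56 (SD, n = 5) for wild types and 34.4 ± 1.83 (SD, n = 3) for mutants. Each vehicle mutant lay below each vehicle wild type in this sum, 30.3 to 32.4 against 33.2 to 33.9. Rora, whose assembled length differed between libraries as described further on, is part of the sum. Without Rora the vehicle groups overlapped, with sums of 28.94, 29.35 and 28.96 in wild types and 29.59, 27.92 and 28.21 in mutants. The part of each other gene in the gap was not tested. Prkcd made up 42.1% of the median sum. When each gene counted equally, as its log2 deviation from its own mean over the 14 libraries, the average over the 8 genes was lowest in wild-type TAK-418 replicate 1, at -0.22, and highest in mutant TAK-418 replicate 3, at 0.15. The other 12 libraries lay between -0.10 and 0.08. Wild-type TAK-418 replicate 1 also held the lowest Rora value, 0.729. Its sum without Rora was 30.61, where the 14 libraries ran from 27.92 to 31.23. Which library was highest differed from gene to gene: 7 libraries held the highest value of at least 1 of the 8 genes, and 7 libraries held a lowest value.

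The absolute levels were low. Prkcd was the most abundant, with a median of 14.04 and a place at percentile 66.1 of all genes with a value, and the other 7 lay between percentiles 27.8 and 43.7. Zic1 followed with a median of 4.44, then Rora with 4.15, Ramp3 with 3.24, Slc17a6 with 2.51, Tcf7l2 with 2.09, Lef1 with 1.61 and Tnnt1 with 1.19. The lowest Prkcd value, 12.9, was above the highest of the other 7, the 5.45 of Zic1. Each other pair of neighbours in this order overlapped over the 14 libraries. For comparison on the same scale, Slc17a7 had a median of 650.5 and Slc17a8, the gene of the remaining vesicular glutamate transporter, a median of 2.42.

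**Figure D1:**
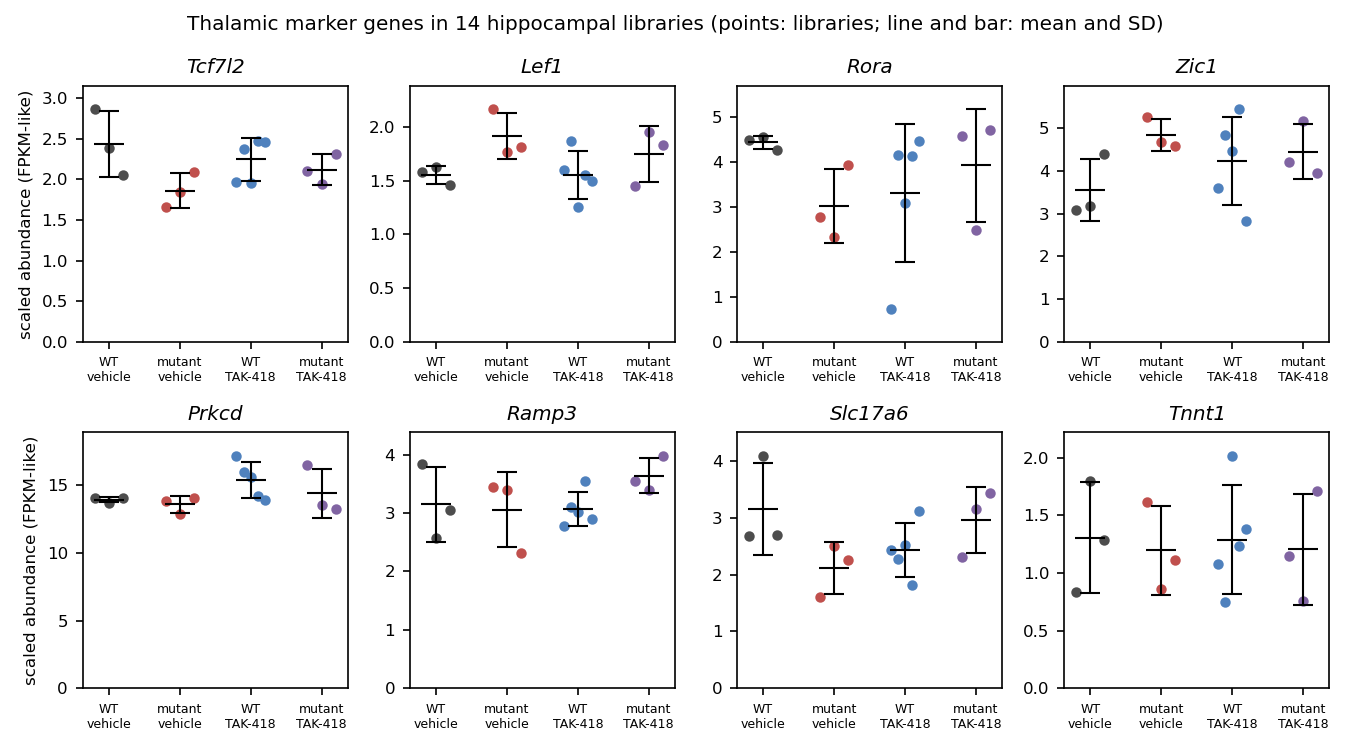
Scaled abundance (FPKM-like) of the 8 genes in each library, in 1 panel per gene with its own axis starting at 0; points are libraries, and the black line and bar give the group mean and SD. The groups overlap widely, apart from the vehicle groups in the Lef1, Rora, Zic1 and Slc17a6 panels, and the lone low Rora point is the 0.729 of wild-type TAK-418 replicate 1.

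Depth was worked out, as a relative total, from the smallest step that separates the values. For 13 libraries it lay between 35.1 and 60.0 M, and the deepest, replicate 1 of the treated wild types, had 168 M. That library also held the most assembled transcripts, 48428 against 33819 to 41228. The fragments behind a gene were estimated from the same step and are approximate: gene totals under 1000 came out whole, within 0.1 of a whole number, in 79.1% of 86 cases. Tnnt1 rested on 21 to 183 fragments per library, Ramp3 on 100 to 449 and Slc17a6 on 194 to 1410, whereas Prkcd rested on 1115 to 6777. For Tnnt1 in wild-type vehicle replicate 3, the exact Poisson interval of its 21 fragments ran from 13.0 to 32.1, which covers counting error only. Over all genes with a value in every library, the coefficient of variation across the 14 libraries had a median of 10.6%, and it was 13.3% for the 8137 of them with a mean abundance between 1 and 20. Prkcd varied by 8.92%, Lef1 by 14.4%, Tcf7l2 by 14.6% and Ramp3 by 14.8%. Zic1 varied by 19.5%, Slc17a6 by 24.6%, Tnnt1 by 32.2% and Rora by 32.3%.

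The tissue label was checked against other markers. Among 14 other thalamic genes, Gbx2 and Shox2 had no assembled transcript in any library, and neither did the habenular genes Pou4f1 and Gpr151. Absence from the assembly does not mean that a gene was silent. The 3 most abundant of the other thalamic genes were Calb2, Adarb1 and Kcnc2, which many neurons outside the thalamus also use. Lhx9, Ntng1 and Rgs16 had a value in all 14 libraries, with medians of 7.10, 10.4 and 3.46, and were added here after their values were seen. Cacna1g, Plcb4 and Zic4 also had a value in all 14 libraries, whereas Synpo2 had one in 11, Foxp2 in 8 and Slitrk6 in 5. The whole list summed to 134 to 173, with the highest sum in wild-type TAK-418 replicate 1. The 15 hippocampal genes, led by Neurod6, Nrip3 and Bok, summed to 629 to 746. Habenular genes summed to 14.5 to 21.1 with a median of 17.6. They were led by Tac1, which had a median of 9.75 and is also in the striatal list. Of the other habenular genes, Tac2 had a value in all 14 libraries, with a median of 3.76. Nhlh2 was also present throughout, with a lowest value of 1.36. Chrnb3 had a value in 7 libraries, Chrnb4 in 2 and Irx2 in 1.

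The 18 choroid plexus genes varied far more than the thalamic ones. They summed to 6587 in wild-type vehicle replicate 3 and 5168 in mutant vehicle replicate 1, against 22.8 to 937 in the other 12 libraries, a 288-fold range, with Ttr, the transthyretin gene, at 6369 and 4906 in those 2 libraries. In the same 2 libraries the 8 thalamic genes summed to 33.2 and 32.4, inside the 30.3 to 35.8 of the other 12. The sums of hypothalamic, meningeal, septal and striatal genes were highest in these 2 libraries, at 24.1 to 28.1 against 1.69 to 18.2 for the hypothalamic list. Nkx2-1 is in both the hypothalamic and the septal list, and was 22.6 and 26.0 in these 2 libraries, most of their hypothalamic sums. It made up more than 0.5 of the hypothalamic sum in 7 libraries and was listed at 0 in 5, while Hcrt, Sim1 and Otp were listed at 0 throughout. Of the other most abundant hypothalamic genes, Gal peaked at 3.19 in mutant TAK-418 replicate 3 and Agrp at 0.396 in wild-type TAK-418 replicate 3. Of the 3 most abundant septal genes, Nkx2-1 and Zic2 peaked in mutant vehicle replicate 1, and Trpc4 peaked at 31.4 in wild-type TAK-418 replicate 4. Of the 3 most abundant meningeal genes, Igf2 peaked at 58.2 in mutant vehicle replicate 1, and Dcn and Islr peaked in treated mutants. Of the 3 most abundant striatal genes, Ppp1r1b peaked at 44.0 in mutant vehicle replicate 1, and Penk and Tac1 peaked in treated mutants. Leaving out either library called none of the 8 genes in any comparison below.

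**Figure D2:**
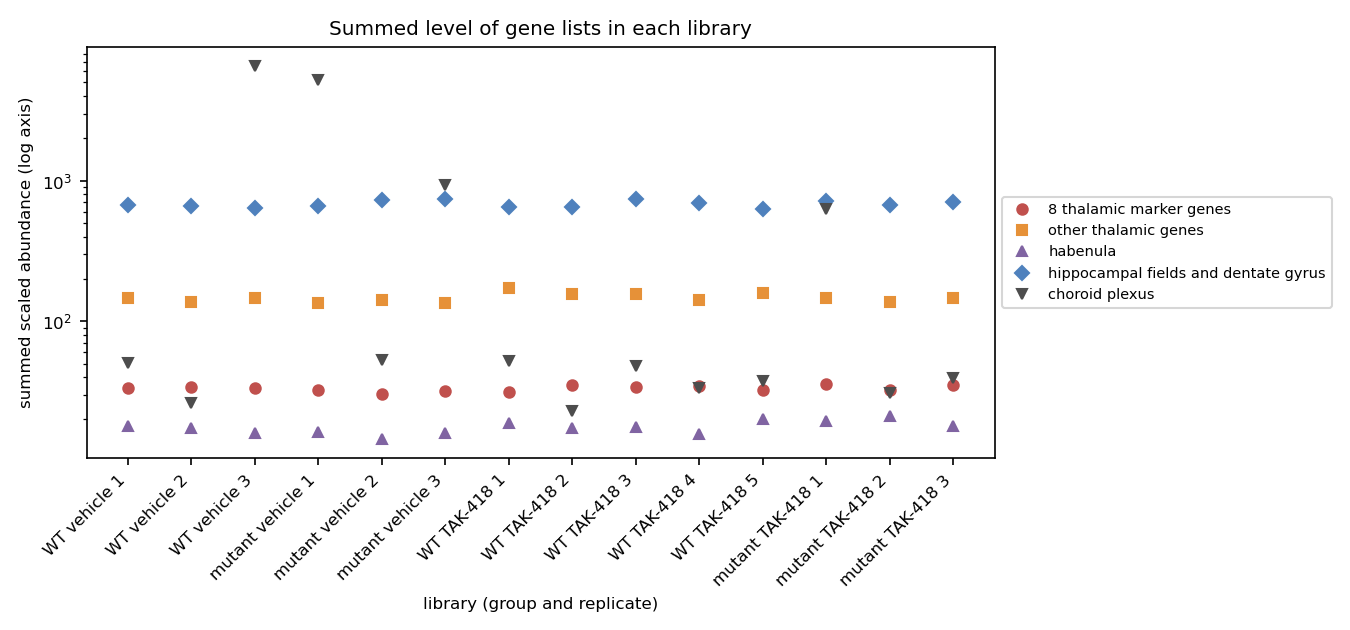
Summed scaled abundance (log axis) of the 8 thalamic marker genes and of 4 other gene lists in each of the 14 libraries, named by group and replicate. The thalamic genes stay between 30.3 and 35.8 in each library, while the choroid plexus sum spans 22.8 to 6587 and peaks in wild-type vehicle replicate 3 and mutant vehicle replicate 1.

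Group differences were tested with limma on log2(scaled abundance + 0.9), in 1 fit of all 14 libraries and 16571 genes, with Benjamini-Hochberg adjustment over all genes. The pseudocount makes differences of genes at this level smaller than their ratios. The limma fit called 0 of the 8 genes in any of the 6 pairs of groups or in the interaction. For mutants against wild types under vehicle, 0% of all tested genes were called. There 2 of the 8, Slc17a6 and Tcf7l2, had an unadjusted p under 0.05, beside 5.45% of all tested genes. For TAK-418 against vehicle, 0.00603% of all genes were called in mutants and 0% in wild types, and 0 of the 8 had an unadjusted p under 0.05 in either genotype, beside 4.4% and 8.42% of all genes. For treated mutants, 0.0121% of all genes were called against treated wild types and 0.00603% against vehicle wild types, and 0 of the 8 were under 0.05 unadjusted, beside 4.94% and 5.39%. Vehicle mutants compared with treated wild types gave 0% called and 0 of the 8 under 0.05 unadjusted, beside 9.24%. The interaction gave 0.00603% called and 1 of the 8, Slc17a6, under 0.05 unadjusted, beside 4.44%. Several of these pairs share a group, so their values are not independent. The p-values measure the spread between these libraries, since nothing beyond the labels says how the mice were related. In whole tissue, fewer cells of a type and less RNA per cell cannot be told apart.

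The genotype comparison under vehicle asks whether the mutation alone shifts these genes. In 4 of the 8 genes the vehicle groups did not overlap, against 8.91% of all tested genes: Lef1 and Zic1 had each mutant above each wild type, and Rora and Slc17a6 had each mutant below. None of the 4 passed the test. Before scaling between libraries the Zic1 groups overlapped. Wild-type vehicle replicate 3 was then at 4.68, and mutant vehicle replicates 1 and 3 were at 4.47 and 4.65. The 8 differences ran from -0.47 to 0.37 with a median of -0.05, and the median over all genes was 0. Of the 14 other thalamic genes 12 were tested. In the same comparison limma called 0 of these 12, with 1 higher and 1 lower at an unadjusted p under 0.05 and a median difference of 0.02. In the other 5 pairs, 0 of the 8 genes had groups that did not overlap. Over all tested genes that share was 8.19% for TAK-418 against vehicle in mutants, 6.33% for the same in wild types and 4.58% between the treated genotypes. It was 9.54% for treated mutants against vehicle wild types and 6.25% for vehicle mutants against treated wild types.

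Slc17a6 encodes VGLUT2, the vesicular glutamate transporter of thalamic relay neurons (ENSMUSG00000030500, chromosome 7, 51622006 to 51671119, plus strand, GRCm38). It had 2.67, 4.09 and 2.70 in the wild-type vehicle libraries and 1.61, 2.50 and 2.26 in the mutant vehicle libraries. With TAK-418 it had 2.43, 2.28, 2.52, 1.82 and 3.13 in wild types and 2.30, 3.15 and 3.43 in mutants. The vehicle mutants were thus all below the vehicle wild types, and the treated mutants overlapped each other group. The vehicle means were 3.15 ± 0.811 (SD, n = 3) in wild types and 2.12 ± 0.459 (SD, n = 3) in mutants. The limma difference was -0.42 ± 0.18 (SE), with an adjusted p of 0.883. In mutants, TAK-418 minus vehicle was 0.35 ± 0.18 (SE) with an adjusted p of 1 (limma), and in wild types it was -0.28 ± 0.16 (SE) with an adjusted p of 0.671 (limma). The interaction, which is the first of these minus the second, was 0.63 ± 0.25 (SE), with an adjusted p of 0.976 in limma. The 194 fragments of mutant vehicle replicate 1, with an exact Poisson interval of 168 to 223, and the 1410 of wild-type TAK-418 replicate 1, with 1337 to 1486, mark the shallowest and deepest Slc17a6 values. In 13 of the 14 libraries the gene was assembled as 1 transcript. Summed genes of Cajal-Retzius cells, which can share Slc17a6, were 63.0 to 78.3 in wild-type vehicle and 69.0 to 77.2 in mutant vehicle libraries. Their part in the Slc17a6 values was not tested.

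Zic1, a zinc finger transcription factor of the dorsal midline, septum and medial thalamus (ENSMUSG00000032368, chromosome 9, 91358058 to 91365810, minus strand), differed in the other direction between the vehicle groups. It had 3.09, 3.19 and 4.40 in wild-type vehicle and 5.27, 4.69 and 4.58 in mutant vehicle libraries. Under TAK-418 the values were 3.61, 4.84, 4.48, 5.45 and 2.84 in wild types and 4.21, 5.18 and 3.97 in mutants. The treated wild types spanned both vehicle groups and held both the highest and the lowest Zic1 values of the study. The vehicle difference was 0.37 ± 0.18 (SE), with an adjusted p of 0.919 (limma). Summed meningeal genes, which can share Zic1, were 68.0 to 113 in wild-type vehicle and 82.3 to 122 in mutant vehicle libraries. The septal genes, with Nkx2-1 among them, summed to 38.3 to 60.1 and 48.0 to 70.4 in the same groups. The part of either list in the Zic1 values was not tested. Zic4, its neighbour on the opposite strand, had a median of 0.844. In mutant vehicle replicate 1, 1 transcript assigned to Zic4 ran across Zic1 with an abundance of 0.355.

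Tcf7l2, a transcription factor of Wnt signalling and a regulator of thalamic and habenular neuron identity, lies on chromosome 19 (ENSMUSG00000024985, 55741820 to 55933654, plus strand). It had 2.86, 2.39 and 2.05 in wild-type vehicle and 1.66, 1.84 and 2.09 in mutant vehicle libraries. The treated libraries had 1.97, 2.37, 1.95, 2.47 and 2.46 in wild types and 2.101, 1.94 and 2.32 in mutants. The vehicle groups touched, with the lowest wild type below the highest mutant. Their limma difference was -0.27 ± 0.12 (SE), with an adjusted p of 0.872. The gene was assembled as 2 to 12 transcripts per library, the most of the 8, and how reads were divided among these is not given in the sources used here. In the authors' deposited table for the same pair, the tested Tcf7l2 locus was slightly higher in mutants, 1.77 against 1.71 in FPKM, with a log2 fold change of 0.05 and a q-value of 1.00.

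Lef1 belongs to the same TCF/LEF family (ENSMUSG00000027985, chromosome 3, 131110471 to 131224356, plus strand). It had 1.58, 1.62 and 1.46 in wild-type vehicle and 2.16, 1.77 and 1.81 in mutant vehicle libraries. With TAK-418 it had 1.60, 1.87, 1.25, 1.55 and 1.49 in wild types and 1.45, 1.95 and 1.83 in mutants. The 3 vehicle mutants were above the 3 vehicle wild types, by a limma difference of 0.20 ± 0.11 (SE) with an adjusted p of 0.932, and the treated groups overlapped. Vehicle mutants minus treated wild types gave a like value, 0.20 ± 0.10 (SE) with an adjusted p of 0.571 (limma), and it shares the mutant libraries with the first. Summed endothelial genes were 116 to 134 in wild-type vehicle and 122 to 145 in mutant vehicle libraries, and their part in the Lef1 values was not tested. Of 15 TCF/LEF factors and Wnt target genes, 13 had a value and 12 were tested. In vehicle mutants against wild types 0 of the 12 passed limma's adjusted threshold, 0 had an unadjusted p under 0.05 in either direction, and their median difference was -0.04. Their most abundant members were Ctnnb1, the beta-catenin gene, Apcdd1 and Axin2, with medians of 226, 18.02 and 7.45.

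Rora, an orphan nuclear receptor of thalamic relay neurons, cortical layer neurons and Purkinje cells (ENSMUSG00000032238, chromosome 9, 68653786 to 69388246, plus strand), had the widest range, 6.46-fold between its lowest and highest library. It had 4.49, 4.56 and 4.27 in wild-type vehicle and 2.78, 2.34 and 3.93 in mutant vehicle libraries. Under TAK-418 the values were 0.729, 4.15, 3.08, 4.15 and 4.47 in wild types and 4.59, 2.49 and 4.71 in mutants. The vehicle wild types were thus tight and above all vehicle mutants, and each other group held at least 1 low library. The limma difference under vehicle was -0.47 ± 0.39 (SE), the largest of the 8 in size and with the widest error, and its adjusted p was 0.998.

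The low Rora libraries differed from the others in how the gene was assembled. Its 10-exon transcript was 10475 to 10599 bases long in 10 libraries and 2811 to 3800 bases in 4, where the last stretch of the final exon was listed as a separate single-exon transcript with an abundance of 0.139 to 0.169. In the 4 libraries with the short model, mutant vehicle replicates 1 and 2, wild-type TAK-418 replicate 3 and mutant TAK-418 replicate 2, Rora was 2.34 to 3.08. In 9 of the 10 with the long model it was 3.93 to 4.71. The exception, 0.729 in wild-type TAK-418 replicate 1, was the one library with an opposite-strand transcript over the 3′ end of Rora, 2 exons and 6346 bases at chr9:69378889-69388023, whose abundance was 5.17 against 0.304 for the 10-exon Rora transcript. That opposite-strand transcript took about 5497 fragments and the 10-exon transcript 538. Without this library the wild-type TAK-418 mean went from 3.32 ± 1.54 (SD, n = 5) to 3.96 ± 0.607 (SD, n = 4). The authors' deposited table for the vehicle groups, which pools the libraries of a group, lists Rora at 2 loci with the same coordinates. One had 2.64 in wild types and 2.31 in mutants in FPKM, a log2 fold change of -0.19 with a q-value of 1.00. The other had 1.665 in wild types and 1.664 in mutants, a log2 fold change of -0.0005.

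**Figure D3:**
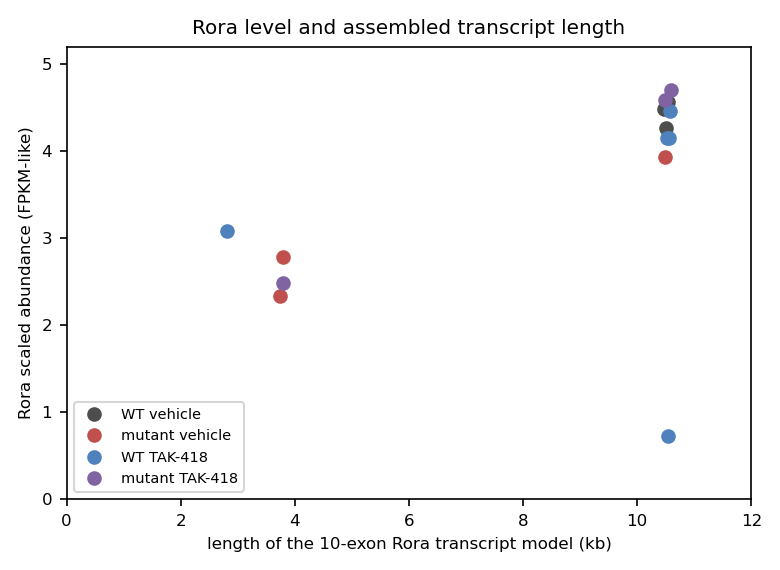
Rora scaled abundance (FPKM-like) against the length of its 10-exon transcript model in kilobases, with 1 point per library coloured by group. The 4 libraries with a model of 2811 to 3800 bases sit at 2.34 to 3.08, 9 of the 10 with a longer model sit at 3.93 to 4.71, and wild-type TAK-418 replicate 1 sits alone at 0.729.

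Prkcd encodes protein kinase C delta, a signalling kinase abundant in thalamic relay nuclei (ENSMUSG00000021948, chromosome 14, 30595354 to 30626210, minus strand). It was the steadiest of the 8, with 14.05, 13.69 and 14.03 in wild-type vehicle and 13.82, 12.88 and 14.04 in mutant vehicle libraries. The treated libraries had 17.2, 16.0, 15.6, 14.2 and 13.9 in wild types and 16.5, 13.5 and 13.2 in mutants. Of the 5 treated wild types, 4 were above all vehicle libraries, and the fifth, at 13.9, was not. TAK-418 minus vehicle in wild types was 0.13 ± 0.08 (SE) with an adjusted p of 0.677 (limma), and vehicle mutants minus treated wild types was -0.16 ± 0.08 (SE) with an adjusted p of 0.561 (limma).

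Ramp3 encodes an accessory protein that changes the ligand preference of calcitonin-family receptors (ENSMUSG00000041046, chromosome 11, 6658521 to 6677475, plus strand). It had 3.84, 2.57 and 3.05 in wild-type vehicle and 3.45, 3.40 and 2.31 in mutant vehicle libraries. With TAK-418 it had 2.78, 3.10, 3.02, 3.55 and 2.89 in wild types and 3.56, 3.39 and 3.98 in mutants. The treated mutants were at the upper end and overlapped each other group. TAK-418 minus vehicle in mutants was 0.21 ± 0.14 (SE) with an adjusted p of 1 (limma), and treated mutants minus treated wild types was 0.20 ± 0.13 (SE) with an adjusted p of 0.926 (limma).

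Tnnt1 encodes slow skeletal troponin T, a muscle protein whose RNA is also found in thalamic neurons (ENSMUSG00000064179, chromosome 7, 4504570 to 4516382, minus strand). It had 0.838, 1.80 and 1.28 in wild-type vehicle and 1.62, 0.861 and 1.12 in mutant vehicle libraries. Under TAK-418 the values were 1.08, 0.747, 2.02, 1.23 and 1.38 in wild types and 1.14, 0.760 and 1.71 in mutants. Each group held both low and high libraries, and the 4 group means lay between 1.20 and 1.31. All 7 limma contrasts of Tnnt1 were between -0.07 and 0.01, with standard errors of 0.21 to 0.32, each larger than its difference.

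**Figure D4:**
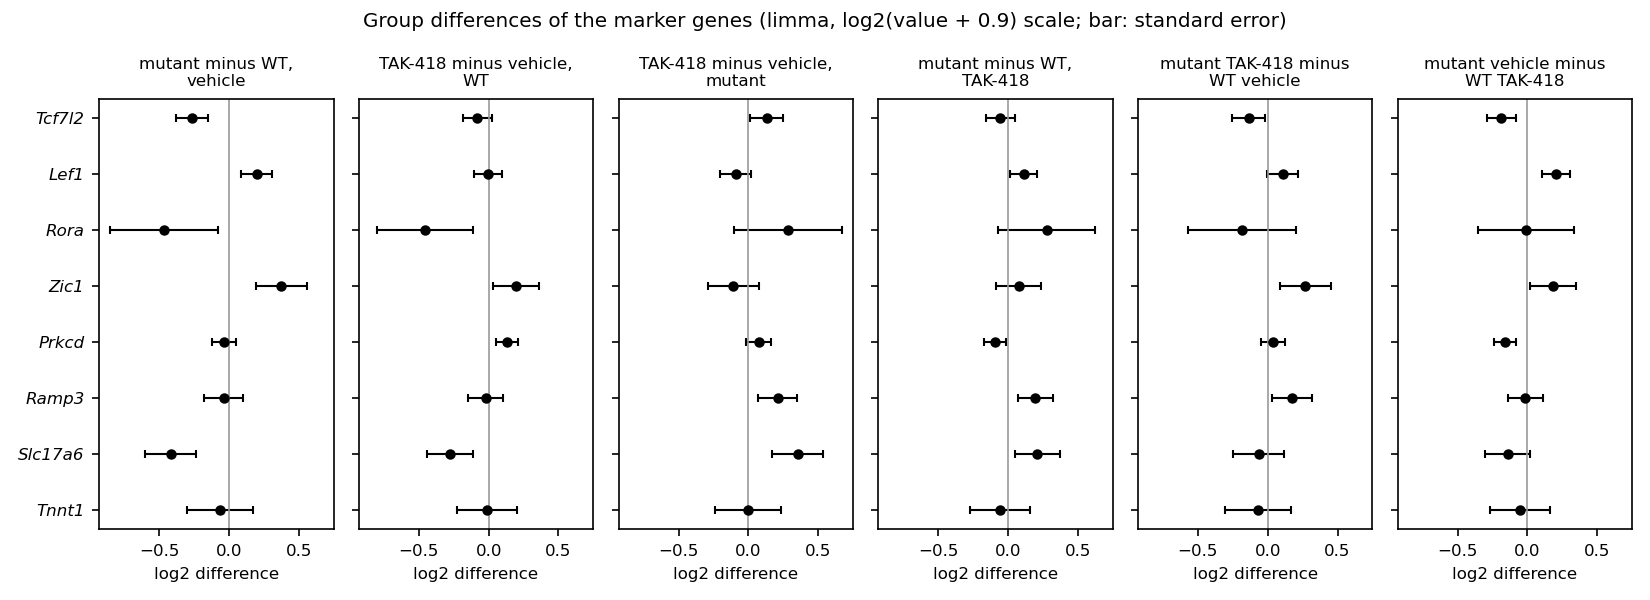
Differences between groups of the 8 genes on the log2(value + 0.9) scale from limma, in 1 panel for each of the 6 pairs of groups; points are differences and bars are standard errors. Under vehicle, Slc17a6, Tcf7l2 and Rora lie more than 1 standard error below 0 and Zic1 and Lef1 more than 1 above, and in no panel did a gene pass the adjusted threshold.

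The authors' deposited tables compare pooled groups in 4 pairs and carry FPKM, a p-value and a q-value per locus. The 8 genes fell on 11 loci, since Tcf7l2, Lef1 and Rora are each listed at 2 loci with the same coordinates, and 10 of these were tested in each table. None of the 10 had a q-value under 0.05 in any authors' deposited table, where 0.224% of tested loci did for vehicle mutants against vehicle wild types, 0.324% for treated mutants against vehicle wild types, 0.611% for vehicle mutants against treated wild types and 0.218% for treated mutants against treated wild types. At a p-value under 0.05 there was 1 locus of the 10, Slc17a6, for vehicle mutants against vehicle wild types, beside 4.32% of tested loci in that authors' deposited table. In the authors' deposited table Slc17a6 went from 2.19 in vehicle wild types to 1.40 in vehicle mutants, a log2 fold change of -0.65 with p = 0.0005 and q = 0.132. In the authors' deposited table for vehicle mutants against treated wild types, Zic1 went from 2.43 in treated wild types to 3.33 in mutants, with p = 0.0015 and q = 0.167. There 3 of the 10 loci in the authors' deposited table were under 0.05, those of Zic1, Prkcd and Lef1, beside 6.48% of tested loci. Between the treated genotypes 3 of the 10 loci were under 0.05 in the authors' deposited table, those of Lef1, Ramp3 and Slc17a6, beside 4.1%. For treated mutants against vehicle wild types 0 of the 10 were, beside 4.49%. Under vehicle the direction in the authors' deposited table differed from that of limma for Tcf7l2 and for Ramp3, whose limma difference was -0.04 and whose log2 fold change in the authors' deposited table was 0.09.

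Whether the same libraries were high for the different genes was examined by correlation. Over the 14 libraries the 28 pairs of the 8 genes had correlations between -0.62 and 0.57, with 10 above 0, 18 below 0 and a median Pearson's r of -0.13. With values centred on the group means the median was -0.08. In permutation tests with 100000 resamples (two-sided), 3 pairs had an unadjusted p under 0.05 and 0 of 28 did after Benjamini-Hochberg adjustment, the smallest adjusted p being 0.349 for r and 0.214 for Spearman's rho. Libraries differ in depth and in choroid plexus content, which all genes of a library share.

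Tcf7l2 and Rora were the pair with the highest r, 0.57, permutation p = 0.0330, with rho = 0.69, permutation p = 0.00766. Their r was 0.62 without the 2 libraries with the most extreme Tcf7l2. Leaving out each library in turn gave an r of 0.54 to 0.76, the highest without wild-type TAK-418 replicate 1. The low Rora values that came with a different assembly are among those correlated, and their part was not tested. Zic1 ran against the other genes in 2 pairs. With Slc17a6 it had r = -0.62, permutation p = 0.0166, and rho = -0.60, permutation p = 0.0250, and r was -0.69 without the 2 libraries with the most extreme Zic1. With Tcf7l2 it had r = -0.56, permutation p = 0.0374, and rho = -0.45, permutation p = 0.105, and r fell in size to -0.32 without the 2 libraries with the most extreme Tcf7l2, so the relation was weaker without them, and with values centred on the group means it was -0.36.

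**Figure D5:**
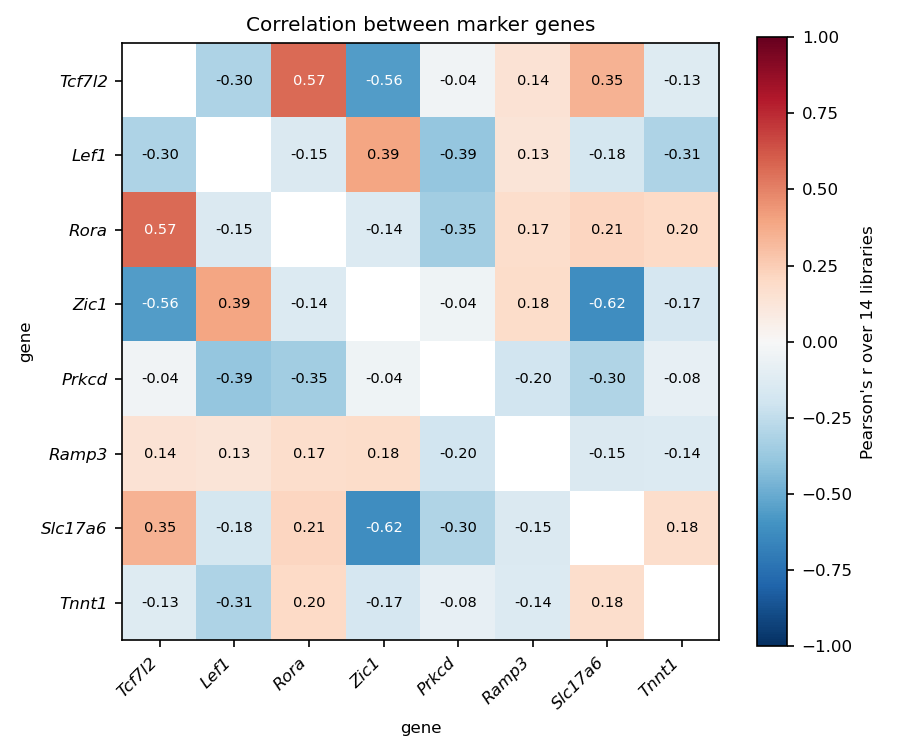
Pearson's r over 14 libraries between log2(scaled abundance + 0.9) of each pair of the 8 genes, from blue at -1 to red at 1. Negative pairs outnumber positive ones, 18 to 10, with extremes of -0.62 for Zic1 with Slc17a6 and 0.57 for Tcf7l2 with Rora.

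Among 14121 other genes with a value in at least 12 libraries, those most like each of the 8 over the 14 libraries were listed as a description, with no test. Slc17a6 was most like Nts, the neurotensin gene, Cbln2, a synaptic organiser of the cerebellin family, and Nxph3, a neurexophilin, with r of 0.86, 0.86 and 0.85. All 3 were highest in wild-type vehicle replicate 2, as Slc17a6 was. Tcf7l2 was most like F8, Ifitm10 and Ube2d1 (r of 0.90, 0.85 and 0.84), and Prkcd like Gle1, D430041D05Rik and Atg13 (r of 0.92, 0.89 and 0.88). Lef1 was most like Gmppa, Aldh1a1 and Scrn2 (r of 0.84, 0.84 and 0.83), and Zic1 like Fkbp10, Cox15 and Zfp513 (r of 0.87, 0.82 and 0.81). Ramp3 was most like Ly96, Colca2 and Nmd3 (r of 0.91, 0.81 and 0.81), and Tnnt1 like 1110051M20Rik, Mvk and Tppp3 (r of 0.83, 0.81 and 0.80).

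Rora was most like Dock3, C130026L21Rik and Cacna2d1, with r of 0.91, 0.90 and 0.90, and all 3 had their lowest value in wild-type TAK-418 replicate 1, as Rora did. Without that library these r fell to 0.65, 0.61 and 0.61. The mean deviation of the 8 genes was most like Zdhhc6, Rad54l and Epb41l1, with r of 0.90, 0.89 and 0.89, followed by Tmem165, Bbs2, Srp19, Mrps12, Ndufaf6, Api5 and Cenpe. All 10 were lowest in wild-type TAK-418 replicate 1, and without it their r lay between 0.64 and 0.84.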

How the data were processed

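Transcripts of each library were assembled with CLASS 2.1.7, per the file headers, and TopHat2 2.1.0, FastQC and build mm10 appear in the submitters' processing notes. The deposited files give each transcript an abundance score by the authors that behaves like FPKM. Per the file headers, the authors' tables hold FPKM per pooled group, a log2 fold change, a p-value and a q-value. The order of the groups was taken from the table names: the deposited log2 ratios were closest to the named pair, among 12 ordered pairs, in 3 of 4 tables. In the table of the treated genotypes, r was 0.187 with the named pair and 0.197 with the vehicle mutants in place of the treated ones. The series description gives 3 to 4 mice per group, but 5 libraries carry the treated wild-type label.

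Transcripts were assigned to GENCODE M21 (GRCm38, 55450 genes) by shared introns, or for single-exon ones by at least 50% exon overlap on the same strand. Abundances were summed per gene and scaled by the median of ratios over 13273 genes. A gene needed a value in 3 or more libraries, and tests used limma 3.58.1 (R 4.3.3) on log2(value + 0.9), threshold 0.05, after a test on simulated data. The other steps used Python 3.11.15 with scipy 1.17.1, pandas 2.3.3, matplotlib 3.10.9 and numpy 2.4.6. Kits are named but their use of strand is not given in the sources used here, so reads of Lef1, Rora, Ramp3 and Zic1 cannot be told from those of annotated genes that overlap them. Opposite-strand transcripts were assembled over Tcf7l2 (4, with an abundance of at most 0.208), Rora (2) and Zic1 (1), and 0 over the other genes. The 8 genes, the marker lists and the tests were chosen with earlier results of these data known. The rule names the 8 genes, the 10 genes most like their mean and 3 per gene, and the 3 most abundant of each marker list with any that pass the test, of which there were 0. Not all of these are printed.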

Additional observations from a re-analysis of the deposited data

How the results depend on the processing

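Over 22 alternatives for each pair of groups and 21 for the interaction, limma called 0 of the 8 genes, while the number of all genes called ran from 0 to at most 17. The smallest adjusted p of any of the 8 genes was 0.369, between vehicle mutants and treated wild types. The differences of Slc17a6, Zic1, Rora, Lef1 and Tcf7l2 under vehicle kept their direction throughout, and leaving out each library in turn gave -0.51 to -0.26 for Slc17a6, 0.30 to 0.51 for Zic1, -0.63 to -0.34 for Rora, 0.13 to 0.23 for Lef1 and -0.35 to -0.18 for Tcf7l2. With multi-exon transcripts only, the differences were 0.26 for Zic1, -0.17 for Tcf7l2, -0.44 for Slc17a6, -0.52 for Rora and 0.20 for Lef1. In that setting 1 of the 8 had an unadjusted limma p under 0.05 under vehicle, where the main setting had 2. A pseudocount of 5 gave 0.20 for Zic1, -0.11 for Tcf7l2, -0.19 for Slc17a6, -0.24 for Rora and 0.08 for Lef1. Near-zero differences changed sign: taking only the highest transcript gave 0.0802 for Tnnt1 and 0.0182 for Ramp3, and leaving out single libraries gave -0.226 to 0.0912 for Tnnt1 (0.0912 without wild-type vehicle replicate 2, 0.0531 without mutant vehicle replicate 2), -0.143 to 0.105 for Ramp3 (0.0812 without wild-type vehicle replicate 1, 0.105 without mutant vehicle replicate 3) and -0.0580 to 0.000603 for Prkcd (up without mutant vehicle replicate 2). The summed level of the 8 genes ranged 1.36-fold with values as deposited and 1.27-fold with the highest transcript only, and 1.22-fold with multi-exon transcripts only. These 3 alternatives were added after the data were seen, and the cause was not tested. No paired analysis was possible because the labels carry no replicate numbers, and those used here follow the order of deposit. Tnnt1 rested on the fewest fragments, 21 to 183.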
